A study of Arabidopsis thaliana with 27 samples.

Results

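Gibberellin metabolism and DELLA genes were followed across 9 groups of genotype and water treatment in Arabidopsis leaves. The group holds 9 of the 34218 genes in the table, taken by locus identifier: the GA 2-oxidases GA2OX1, GA2OX2, GA2OX6 and GA2OX8, the GA 3-oxidase GA3OX1, the GA 20-oxidases GA20OX1 and GA20OX2, and the DELLA genes RGA and RGL3. The loci were selected on results of these data already known, and which measured values picked them is not recorded. Their values are therefore given as a description, with standard errors and no p-value. Of the 9 genes, 8 had a group mean of at least 10 normalized counts in at least 1 group and entered the fit, and GA20OX2 did not.

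Leaves came from *GC::AtTOR* plants, *35S::AtTOR* plants and wild-type (WT) Col-0 plants, all in the Col-0 background. *GC::AtTOR* drives the Arabidopsis TOR kinase gene from a tobacco promoter active in guard cells, and *35S::AtTOR* drives it from the broadly active CaMV 35S promoter. Each genotype was kept well-watered, deprived of water for 11 days between 27 and 38 days after germination (drought), or given water again for 4 days after that drought (re-watered). Each of the 9 groups had 3 samples, 27 in all, and the sources do not say whether a sample was 1 plant or a pool, which transgenic line gave it, or at what hour it was taken. The age of well-watered plants at sampling is not given either. A p-value therefore measures the spread between these samples only.

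Recovered reads ranged from 2739872 in *35S::AtTOR* re-watered replicate 1 to 16707106, and the second lowest sample had 10385851. In that shallow sample 1 read equals 4.13 normalized counts, against 0.797 to 1.2 elsewhere. TOR itself averaged 12245 ± 2761 normalized counts in well-watered *35S::AtTOR* leaves and 1194 ± 61.7 in well-watered WT leaves (SD, n = 3 each). In well-watered *GC::AtTOR* leaves it averaged 1187 ± 58.7, and its samples overlapped with those of WT. The 5 green leaf markers summed to between 75122 and 413174 normalized counts in every sample. The defining meristem genes WUS and CLV3, the root hair gene EXPA7 and the floral regulator LFY were at 0 in all 27 samples, and the other root and meristem markers summed to at most 8.17 and 1.65. The floral gene AG was present at a low level and was lower after re-watering, with 1.61 ± 0.56 normalized counts in re-watered and 17.3 ± 2.19 in well-watered *GC::AtTOR* leaves, 3.17 ± 0.84 and 15.8 ± 4.24 in *35S::AtTOR* leaves, and 5.73 ± 3.26 and 23.9 ± 7.59 in WT leaves (SD, n = 3 each), and its part in the results was not tested. Other floral markers did not follow AG. AP3 and PI were at 0 in well-watered WT leaves and at 2.22 ± 1.32 and 2.19 ± 1.71 in re-watered WT leaves. SEP3 reached 11.3 in well-watered WT replicate 1, and AP1 at most 0.975 in any sample. Their part was not tested either. *GC::AtTOR* well-watered replicates 1 and 2 differed by 2.25 times counting variance, against 4.24 to 68.3 times in the other pairs of replicates. They differed by more than sampling noise and were kept as separate samples.

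Gibberellins are plant hormones that promote growth, and their level is set by the balance of enzymes that make and destroy the active forms. GA 20-oxidases and GA 3-oxidases carry out the last steps of synthesis, while GA 2-oxidases add a hydroxyl group that inactivates active gibberellins or their precursors. Active gibberellin is bound by GID1 receptors, and the complex marks DELLA proteins such as RGA and RGL3, which restrain growth, for destruction. In well-studied Arabidopsis seedlings, active gibberellin lowers the transcripts of GA 20- and GA 3-oxidase genes and raises those of several GA 2-oxidase genes, and salt and cold treatments raise transcripts of GA 2-oxidase genes.

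The GA 2-oxidase genes moved apart across the water treatments, so the 250 bases before the annotated start of each are shown here with those of GA3OX1. Like GA2OX1, GA3OX1 was lowest after re-watering in every genotype. Under drought they parted, and GA2OX1 lay below the well-watered samples in every genotype. GA3OX1 lay above the well-watered samples in *GC::AtTOR* and overlapped with them in the other genotypes. The sequences were read from the TAIR10.1 assembly with its RefSeq gene models, 5′ to 3′ on the strand of the gene. Capitals mark the W-box core TTGAC and the core of the abscisic acid response element (ABRE), ACGTG, each on either strand. The windows are chr1:29513101-29513350 for GA2OX1 (minus strand), chr1:10537207-10537456 for GA2OX2 (plus strand), chr1:486550-486799 for GA2OX6 (plus strand), chr4:11302432-11302681 for GA2OX8 (plus strand) and chr1:5346343-5346592 for GA3OX1 (minus strand).
GA2OX1: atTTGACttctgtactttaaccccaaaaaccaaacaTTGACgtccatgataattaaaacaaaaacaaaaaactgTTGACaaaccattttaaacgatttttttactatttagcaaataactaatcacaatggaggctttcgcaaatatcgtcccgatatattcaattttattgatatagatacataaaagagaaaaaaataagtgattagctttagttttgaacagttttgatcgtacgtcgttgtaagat
GA2OX2: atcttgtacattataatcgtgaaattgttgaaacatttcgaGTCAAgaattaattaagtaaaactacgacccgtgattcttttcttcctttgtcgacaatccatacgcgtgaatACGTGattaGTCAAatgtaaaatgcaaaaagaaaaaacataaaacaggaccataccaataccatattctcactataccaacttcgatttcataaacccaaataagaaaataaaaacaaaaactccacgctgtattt
GA2OX6: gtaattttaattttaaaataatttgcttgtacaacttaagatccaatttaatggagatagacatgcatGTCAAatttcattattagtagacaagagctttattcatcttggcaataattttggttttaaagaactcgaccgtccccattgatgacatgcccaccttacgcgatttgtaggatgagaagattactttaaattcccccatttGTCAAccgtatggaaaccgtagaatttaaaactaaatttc
GA2OX8: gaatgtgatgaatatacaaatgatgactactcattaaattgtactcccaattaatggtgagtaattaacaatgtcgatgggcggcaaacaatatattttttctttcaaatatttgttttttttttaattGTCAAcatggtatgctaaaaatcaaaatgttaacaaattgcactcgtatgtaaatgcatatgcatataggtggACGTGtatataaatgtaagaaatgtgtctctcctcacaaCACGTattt
GA3OX1: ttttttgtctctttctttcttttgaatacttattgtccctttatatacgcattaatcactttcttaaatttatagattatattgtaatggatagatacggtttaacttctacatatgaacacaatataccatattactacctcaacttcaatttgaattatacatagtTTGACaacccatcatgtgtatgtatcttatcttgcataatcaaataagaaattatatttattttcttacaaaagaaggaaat

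The ABRE core stood in the window of 3 of the 9 genes, once in GA2OX2, in 2 places in GA2OX8 and once in RGL3. The share was 22.9% over 27437 windows of the same length before protein-coding genes, these 9 included. The W-box core stood in 7 of the 9, all but RGA and RGL3, against 44.9% of windows. Neither the G-box CACGTG, which contains the ABRE core and is found in 6.49% of windows, nor the core of the dehydration response element, CCGAC, found in 12.0%, was present in any of the 9. The evening element AAATATCT, found in 4.79% of windows, stood in that of RGA only. A match is a run of letters and not a site of binding.

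GA2OX6 (AT1G02400, chr1:486800-489651, plus strand), which inactivates active gibberellins, differed most between the genotypes. In *GC::AtTOR* leaves it had 100.3, 103 and 35.1 normalized counts when well-watered, 136, 45.8 and 91.6 under drought, and 289, 102 and 114 after re-watering. In *35S::AtTOR* leaves it had 84.3, 78.5 and 40.8 when well-watered, 146, 262 and 156 under drought, and 53.7, 79.7 and 107 after re-watering. In WT leaves it had 12.2, 3.5 and 22.8 when well-watered, 257, 183 and 40.3 under drought, and 804, 833 and 693 after re-watering. The order of the genotypes thus turned round: all 6 transgenic samples lay above all 3 WT samples when well-watered and below all 3 after re-watering, and under drought the genotypes overlapped.

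On the log2(normalized count + 1) scale, used for all fold changes here, the difference of GA2OX6 from WT in well-watered leaves was 2.69 ± 0.63 for *GC::AtTOR* and 2.55 ± 0.63 for *35S::AtTOR* (± standard error, here and below). After re-watering the difference was -2.36 ± 0.63 for *GC::AtTOR* and -3.31 ± 0.63 for *35S::AtTOR*. Within WT, re-watered leaves were 6.11 ± 0.63 above well-watered leaves, a 69.1-fold difference, which was 43.8-fold without well-watered replicate 2. WT drought leaves were 3.48 ± 0.63 above the well-watered ones. The WT drought value rested partly on replicate 3, the sample at 40.3, and was 4.28 without it. In *GC::AtTOR* the re-watered difference was 1.06 ± 0.63 and in *35S::AtTOR* it was 0.25 ± 0.63, with overlapping samples in both. Set against the WT response to re-watering, the response differed by -5.05 ± 0.89 for *GC::AtTOR* and by -5.86 ± 0.89 for *35S::AtTOR*.

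**Figure D1:**
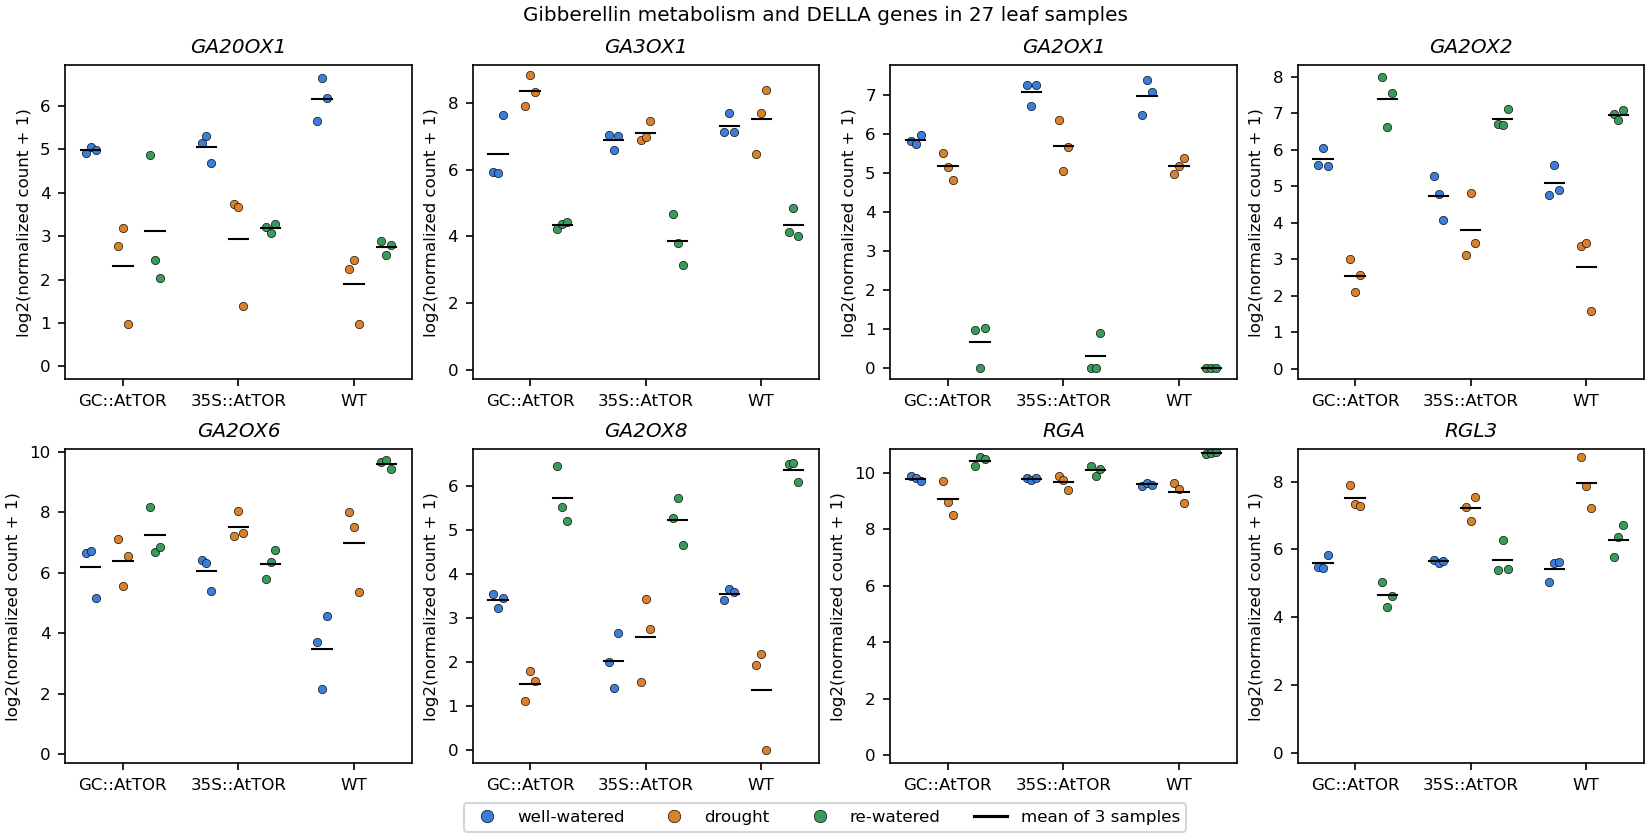
log2(normalized count + 1) of the 8 genes that entered the fit, 1 panel per gene, in *GC::AtTOR*, *35S::AtTOR* and WT leaves; each point is 1 of 27 samples, colours give the water treatment and the black line is the mean of 3 samples. GA2OX6 reached 693 to 833 normalized counts only in re-watered WT leaves, and GA2OX1 was at or near 0 in all 9 re-watered samples.

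Genes that respond to touch and wounding varied between the same samples. The summed normalized counts of 8 such genes, among them the calmodulin-like TCH2 and the cell wall enzyme TCH4, were 32199, 30382 and 12903 in well-watered *GC::AtTOR* leaves, 19019, 15658 and 7326 in well-watered *35S::AtTOR* leaves and 6120, 8497 and 6958 in well-watered WT leaves. In both transgenic genotypes replicate 3, the well-watered sample lowest in this sum, was also the lowest in GA2OX6. In well-watered WT leaves this did not hold: replicate 2 was highest in the sum and lowest in GA2OX6, and replicate 1, lowest in the sum, was in the middle in GA2OX6. Under drought the sum was lowest, at 2565, in WT replicate 3, again the lowest of its group in GA2OX6, and highest, at 14337 and 14201, in WT replicate 1 and *35S::AtTOR* replicate 2, which were also the highest in GA2OX6. After re-watering it ranged from 43836 to 62035 over all 9 samples, in which GA2OX6 ranged from 53.7 to 833. The part of touch or wounding in the values of GA2OX6 was not tested. Seed storage transcripts also stood out in well-watered WT leaves. There CRA1, CRU3 and OLEO1 summed to 6.97, 179 and 98.7, against at most 1.95 in every other group. Over the same replicates GA2OX1, GA2OX2, GA2OX8, GA3OX1, GA20OX1 and RGA ranked in the same order, while GA2OX6 and RGL3 did not. The part of seed transcripts in the differences of any gene from well-watered WT leaves was not tested.

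**Figure D2:**
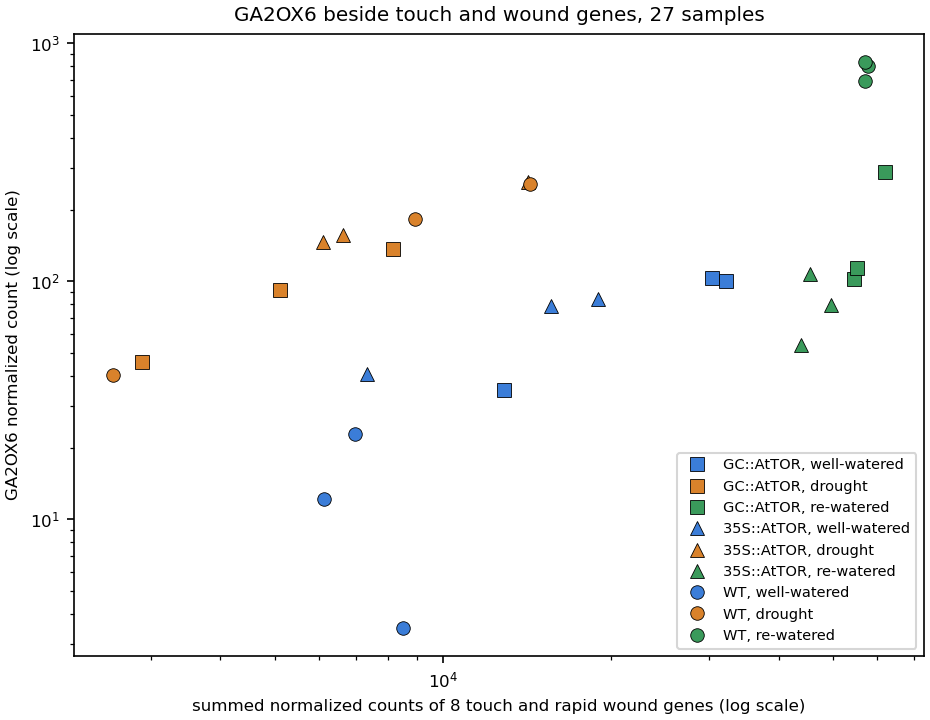
GA2OX6 normalized count (log scale) against the summed normalized counts of 8 touch and rapid wound genes (log scale), 1 point per sample; shapes give the genotype and colours the water treatment. The 9 re-watered samples share high sums, 43836 to 62035, but GA2OX6 was 693 to 833 in WT and 53.7 to 289 in the transgenic leaves.

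GA2OX1 (AT1G78440, chr1:29511561-29513100, minus strand), a further enzyme that inactivates active gibberellins, ran the other way and was nearly silent after re-watering. In *GC::AtTOR* leaves it had 55.0, 52.7 and 61.4 normalized counts when well-watered, 44.6, 34.3 and 27.3 under drought, and 0.972, 0 and 1.03 after re-watering. In *35S::AtTOR* leaves it had 151, 104 and 150.0 when well-watered, 80.3, 32.2 and 49.1 under drought, and 0, 0 and 0.865 after re-watering. In WT leaves it had 88.0, 166 and 133 when well-watered, 30.0, 34.7 and 40.3 under drought, and 0 in each re-watered sample. No re-watered sample reached the lowest well-watered or drought sample of any genotype. A count of 0 over the 3 re-watered WT samples allows a mean of up to 0.823 normalized counts (3 reads over the group), so GA2OX1 was at least 157-fold lower in re-watered than in well-watered WT leaves. In *GC::AtTOR*, with 2 reads in the re-watered samples, the ratio of well-watered to re-watered was 87.8 (95% exact Poisson interval 24.3 to 725), and in *35S::AtTOR*, with 1 read, it was 334 (60.0 to 13202). These intervals cover counting error only. The fitted log2 fold changes of GA2OX1 after re-watering depend on the value added before the logarithm and are no bound.

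Between drought and well-watered leaves the log2 difference of GA2OX1 was -0.68 ± 0.34 in *GC::AtTOR*, -1.39 ± 0.34 in *35S::AtTOR* and -1.82 ± 0.34 in WT, and in each genotype the drought samples lay below the well-watered ones. Well-watered *GC::AtTOR* leaves lay below WT leaves with no overlap (-1.14 ± 0.34), while well-watered *35S::AtTOR* leaves overlapped with WT leaves (0.09 ± 0.34).

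GA2OX2 (AT1G30040, chr1:10537457-10540044, plus strand), another enzyme acting on active gibberellins, was lowest under drought and highest after re-watering in every genotype. The *GC::AtTOR* samples held 47.3, 65.9 and 46.0 normalized counts when well-watered, 7.04, 3.27 and 4.87 under drought, and 255, 97.7 and 189 after re-watering. The *35S::AtTOR* samples held 38.1, 26.7 and 16.0 when well-watered, 7.65, 27.3 and 9.82 under drought, and 103, 101 and 138 after re-watering. The WT samples held 26.1, 46.7 and 28.7 when well-watered, 9.36, 9.79 and 1.97 under drought, and 124, 112 and 136 after re-watering. All re-watered samples lay above all others, and only in *35S::AtTOR* did drought and well-watered samples overlap. Re-watered leaves were 1.66 ± 0.47 above well-watered leaves in *GC::AtTOR*, 2.11 ± 0.47 in *35S::AtTOR* and 1.89 ± 0.47 in WT. For drought against well-watered leaves the difference was -3.19 ± 0.47 in *GC::AtTOR*, -0.93 ± 0.47 in *35S::AtTOR* and -2.28 ± 0.47 in WT.

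GA2OX8 (AT4G21200, chr4:11302682-11306770, plus strand), which acts on the longer-chain precursors of active gibberellins, was also highest after re-watering in every genotype. In *GC::AtTOR* leaves it had 10.6, 8.38 and 9.86 normalized counts when well-watered, 1.17, 2.45 and 1.95 under drought, and 85.5, 44.8 and 36.0 after re-watering. In *35S::AtTOR* leaves it had 3.01, 1.67 and 5.33 when well-watered, 1.91, 9.76 and 5.73 under drought, and 37.2, 51.9 and 24.2 after re-watering. In WT leaves it had 9.58, 11.7 and 11.0 when well-watered, 2.81, 3.56 and 0 under drought, and 88.4, 89.7 and 67.2 after re-watering. The re-watered samples were again the highest in each genotype. Drought samples lay below well-watered ones without overlap in *GC::AtTOR* and WT, while in *35S::AtTOR* they overlapped. The drought groups rest on 6 reads in *GC::AtTOR*, 19 in *35S::AtTOR* and 7 in WT, so the depth limits what can be said of them. Drought leaves differed from well-watered leaves by -1.91 ± 0.50 in *GC::AtTOR*, 0.55 ± 0.50 in *35S::AtTOR* and -2.18 ± 0.50 in WT, and re-watered leaves by 2.32 ± 0.50, 3.19 ± 0.50 and 2.81 ± 0.50 in the same genotypes.

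GA20OX1 (AT4G25420, chr4:12990851-12992585, minus strand), which makes the precursors of active gibberellins, was high only in well-watered leaves. The *GC::AtTOR* samples held 28.9, 32.3 and 30.7 normalized counts when well-watered, 5.87, 8.17 and 0.975 under drought, and 28.2, 4.48 and 3.08 after re-watering. The *35S::AtTOR* samples held 34.1, 38.4 and 24.9 when well-watered, 12.4, 11.7 and 1.64 under drought, and 8.27, 7.42 and 8.65 after re-watering. The WT samples held 48.8, 99.3 and 70.9 when well-watered, 3.75, 4.45 and 0.984 under drought, and 6.37, 4.94 and 5.95 after re-watering. Both transgenic genotypes lay below WT when well-watered, with no overlap, the difference being -1.17 ± 0.66 for *GC::AtTOR* and -1.11 ± 0.66 for *35S::AtTOR*. For drought against well-watered leaves it was -2.66 ± 0.66 in *GC::AtTOR*, -2.10 ± 0.66 in *35S::AtTOR* and -4.26 ± 0.66 in WT. Re-watered *GC::AtTOR* replicate 1 stood apart at 28.2, and it was also the highest of its group in GA2OX2, GA2OX6 and GA2OX8. With it, re-watered differed from well-watered *GC::AtTOR* leaves by -1.87 ± 0.66, and without it by -2.74. The same difference was -1.86 ± 0.66 in *35S::AtTOR* and -3.40 ± 0.66 in WT.

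GA20OX2 (AT5G51810, chr5:21055179-21056881, minus strand), a second enzyme of that step, was practically absent: 1 read fell in each of 3 samples and none in the others, with a highest value of 0.975 normalized counts.

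GA3OX1 (AT1G15550, chr1:5344388-5346342, minus strand), the main enzyme of the final activating step in vegetative tissue, was lowest after re-watering in all genotypes. In *GC::AtTOR* leaves it had 59.8, 58.7 and 199 normalized counts when well-watered, 239, 463 and 321 under drought, and 17.5, 19.7 and 20.6 after re-watering. In *35S::AtTOR* leaves it had 131, 96.9 and 129 when well-watered, 119, 126 and 177 under drought, and 24.8, 13.0 and 7.79 after re-watering. In WT leaves it had 139, 207 and 140.1 when well-watered, 88.0, 207 and 339 under drought, and 16.7, 28.0 and 15.3 after re-watering. *GC::AtTOR* was the genotype in which drought samples lay wholly above well-watered samples, by 1.88 ± 0.46, against 0.23 ± 0.46 in *35S::AtTOR* and 0.20 ± 0.46 in WT, where they overlapped. Leaving out well-watered *GC::AtTOR* replicate 3, at 199, brought the *GC::AtTOR* value to 2.45, which then rests on well-watered replicates 1 and 2, the unusually close pair. Over all alternatives the value ranged from 1.58 to 2.45. For re-watered against well-watered leaves the difference was -2.15 ± 0.46 in *GC::AtTOR*, -3.02 ± 0.46 in *35S::AtTOR* and -2.98 ± 0.46 in WT.

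RGA (AT2G01570, chr2:255247-257568, minus strand), a DELLA repressor of stem and leaf growth, was highest after re-watering and ranged from 365 to 1711 normalized counts. The *GC::AtTOR* samples held 944, 906 and 835 normalized counts when well-watered, 834, 503 and 365 under drought, and 1204, 1540 and 1459 after re-watering. The *35S::AtTOR* samples held 916, 858 and 912 when well-watered, 946, 859 and 683 under drought, and 1228, 948 and 1141 after re-watering. The WT samples held 753, 808 and 765 when well-watered, 804, 687 and 487 under drought, and 1658, 1686 and 1711 after re-watering. Drought samples lay below well-watered samples without overlap in *GC::AtTOR* (-0.74 ± 0.20) and overlapped with them in *35S::AtTOR* (-0.12 ± 0.20) and WT (-0.26 ± 0.20), the last 2 differences turning to 0.01 without drought replicate 3 in *35S::AtTOR* and with equal sample totals in WT. Re-watered samples lay above well-watered samples in each genotype, by 0.64 ± 0.20 in *GC::AtTOR*, 0.30 ± 0.20 in *35S::AtTOR* and 1.12 ± 0.20 in WT. After re-watering both transgenic genotypes lay below WT with no overlap (-0.27 ± 0.20 for *GC::AtTOR* and -0.62 ± 0.20 for *35S::AtTOR*). Well-watered samples of both lay above WT without overlap, by 0.21 ± 0.20 each, about the size of the standard error.

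RGL3 (AT5G17490, chr5:5763989-5766246, minus strand), a DELLA gene known for its link to jasmonate and defence responses, was highest under drought. The *GC::AtTOR* samples held 43.4, 43.1 and 55.9 normalized counts when well-watered, 238, 161 and 155 under drought, and 32.1, 18.8 and 23.6 after re-watering. The *35S::AtTOR* samples held 50.2, 47.6 and 49.7 when well-watered, 150.1, 114 and 187 under drought, and 41.3, 76.0 and 41.5 after re-watering. The WT samples held 32.2, 47.9 and 48.1 when well-watered, 425, 233 and 149.6 under drought, and 53.4, 81.5 and 104 after re-watering. Every drought sample exceeded every other sample of all genotypes, by 1.92 ± 0.32 over well-watered leaves in *GC::AtTOR*, 1.57 ± 0.32 in *35S::AtTOR* and 2.52 ± 0.32 in WT. After re-watering the genotypes parted: relative to well-watered leaves the difference of RGL3 was -0.93 ± 0.32 in *GC::AtTOR*, 0.05 ± 0.32 in *35S::AtTOR* and 0.85 ± 0.32 in WT. Re-watered *GC::AtTOR* leaves lay below re-watered WT leaves with no overlap (-1.62 ± 0.32).

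**Figure D3:**
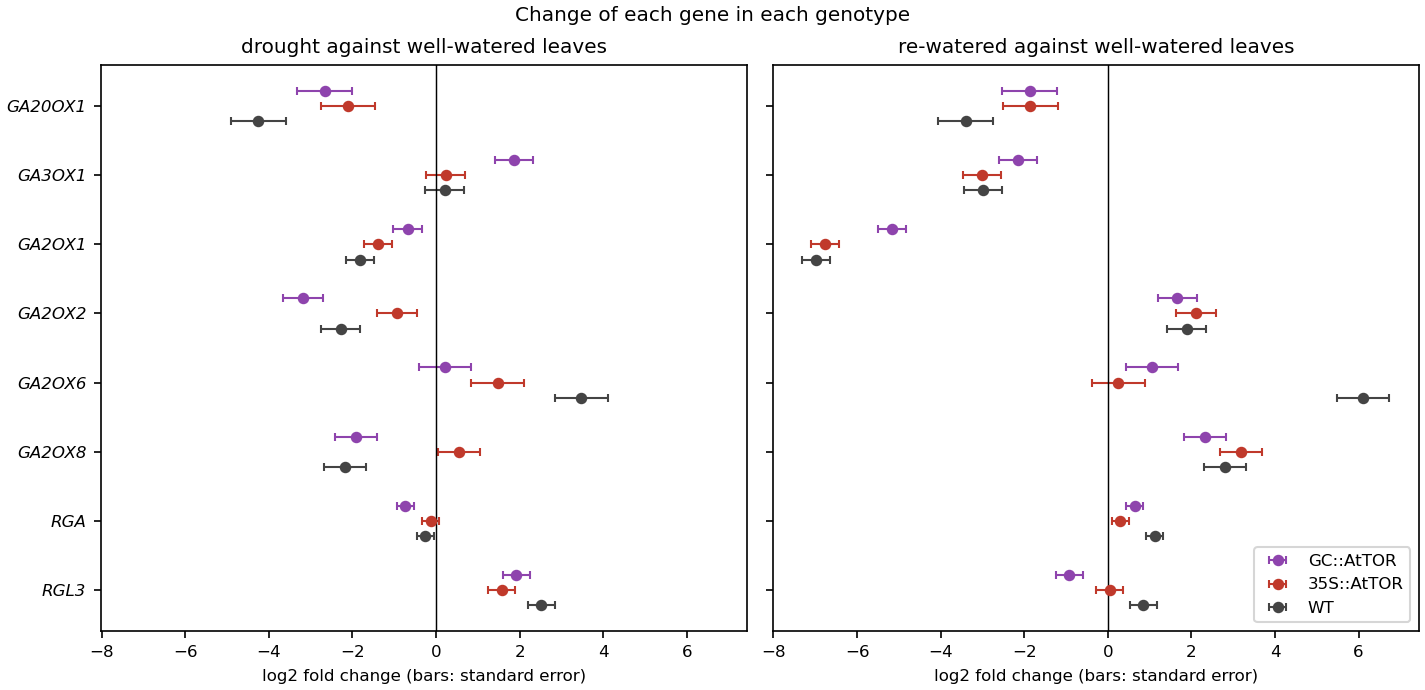
log2 fold change of drought (left) and re-watered (right) leaves against well-watered leaves for the 8 genes, by genotype; points are estimates from 3 samples a group and bars are standard errors. GA2OX6 stands at 6.11 in re-watered WT leaves but at 1.06 in *GC::AtTOR* and 0.25 in *35S::AtTOR*. On the right, GA2OX2 and GA2OX8 lie above 0 and GA2OX1, GA3OX1 and GA20OX1 below 0 in all 3 genotypes.

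Across these comparisons a differentially expressed gene (DEG) was one with a log2 fold change beyond 1 in either direction and an adjusted p under 0.05. In re-watered against well-watered *GC::AtTOR* leaves, 2 of the 8 genes were higher DEGs and 3 lower, where 6.68% of all 18785 genes tested were higher and 7.95% lower, and 3 lay higher and 4 lower with no overlap between samples (26.7% and 25.7% of all genes). For *35S::AtTOR* 2 were higher DEGs and 3 lower (9.72% and 9.92% of all genes), and 3 lay higher and 3 lower without overlap (29% and 30%). For WT 4 were higher DEGs and 3 lower (14.4% and 15.8%), and 5 lay higher and 3 lower without overlap (38% and 36.1%). The median log2 fold change of the 8 genes was -0.14 in *GC::AtTOR*, 0.15 in *35S::AtTOR* and 0.99 in WT, against 0.02, -0.0019 and 0.02 over all genes. GA2OX1 was the lowest of the 8 in each and would be so at its bound too, which leaves the medians as they are. In drought against well-watered *GC::AtTOR* leaves 2 were higher DEGs and 3 lower (8.02% and 17% of all genes), and 2 lay higher and 5 lower without overlap (28.4% and 31.5%). For *35S::AtTOR* 1 was a higher DEG and 2 lower (2.32% and 5.44%), and 2 lay higher and 2 lower without overlap (22.3% and 24%). For WT 2 were higher DEGs and 4 lower (7.61% and 12.8%), and the same numbers lay higher and lower without overlap (29.6% and 33.6%). Because the 8 genes were chosen with such values in view, nothing is read from these counts.

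Between genotypes the counts were lower. GA2OX6 was the 1 higher DEG among well-watered *GC::AtTOR* leaves against WT, with none lower (0.98% and 0.0905% of all genes), and 2 genes lay higher and 2 lower without overlap (12.2% and 12%). That count of 1 became 0 without WT replicate 1, WT replicate 2, *GC::AtTOR* replicate 1 or *GC::AtTOR* replicate 2, and 2 without *GC::AtTOR* replicate 3. GA2OX6 was also the 1 higher DEG among well-watered *35S::AtTOR* leaves, with none lower (1.31% and 1.44%), and 2 lay higher and 3 lower without overlap (19.7% and 21.4%). Its count became 0 without WT replicate 2 or *35S::AtTOR* replicate 2. Under drought none of the 8 was a DEG or free of overlap with WT, in *GC::AtTOR* (DEGs 0.0106% higher and 0.00532% lower, no overlap 3.16% and 3.18% of all genes) or in *35S::AtTOR* (1.25% and 0.298%, no overlap 13% and 11.6%). After re-watering GA2OX6 and RGL3 were lower DEGs in *GC::AtTOR* with none higher (6.35% lower and 8.3% higher), and 3 lay lower without overlap and none higher (29% and 28.8%). In re-watered *35S::AtTOR* leaves GA2OX6 was a lower DEG with none higher (4.85% and 5.15%), and 3 lay lower and 1 higher without overlap (25.5% and 25.9%). The counts after re-watering were 2 and 1 whichever replicate was left out.

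The response to treatment was also compared between genotypes. The drought response of GA2OX8 in *35S::AtTOR* differed from that of WT by 2.72 ± 0.71, the 1 higher DEG of that comparison, with none lower (2.09% and 1.37% of all genes), and rests on 19 reads under drought in *35S::AtTOR* and 7 in WT. That count was 0 without well-watered WT replicate 2 or 3, well-watered *35S::AtTOR* replicate 2, drought WT replicate 3 or drought *35S::AtTOR* replicate 2, and 2 without drought *35S::AtTOR* replicate 3. For *GC::AtTOR* none of the 8 was a DEG in drought response (0.0373% higher and 0.208% lower), with 2 without well-watered *GC::AtTOR* replicate 3 and 1 without drought WT replicate 3 or drought *GC::AtTOR* replicate 1. In re-watering response, GA2OX1 was higher and GA2OX6 and RGL3 lower in *GC::AtTOR* (8.8% and 7.87%), of which GA2OX1 rests on 2 reads in re-watered *GC::AtTOR* leaves and none in WT, and GA2OX6 was lower in *35S::AtTOR* with none higher (7.82% and 7.63%). The genotype comparisons share the WT samples, and the comparisons with well-watered leaves share those within each genotype.

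All re-watered samples also differed from the others in genes of the circadian clock. The afternoon gene GI had 111 ± 23.1 normalized counts in re-watered and 3523 ± 84.2 in well-watered *GC::AtTOR* leaves, 98.6 ± 4.63 and 3948 ± 305 in *35S::AtTOR* leaves, and 169 ± 16.4 and 3601 ± 209 in WT leaves (SD, n = 3 each). The 5 evening clock genes summed to 2538 to 3271 over the 9 re-watered samples, against 8453 to 12175 over drought samples and 12043 to 14512 over well-watered samples. The morning list of 4, which includes PRR7, summed to 219 to 347 after re-watering, against 2559 to 2935 under drought and 3423 to 4178 when well-watered. The part of the sampling hour in the differences between re-watered and other leaves was not tested. The green leaf markers had lower sums in re-watered leaves too, 188383 to 232187 in *GC::AtTOR*, 116518 to 163386 in *35S::AtTOR* and 85050.1 to 94313 in WT, against 262605 to 349183, 207785 to 254200.0 and 338296 to 413174 in well-watered leaves of the same genotypes. Of these 5 genes, 3 lay lower without overlap in *GC::AtTOR*, 3 in *35S::AtTOR* and 5 in WT (25.7%, 30% and 36.1% of all genes). RBCS3B did not fall in *GC::AtTOR*, with a mean of 43870 in re-watered and 42694 in well-watered leaves. Under drought the green leaf sums were 75122 to 168378 in *GC::AtTOR*, 159849 to 193502 in *35S::AtTOR* and 117750 to 145800 in WT, below the well-watered samples of each genotype. The 4 guard cell markers summed to 138 to 171 in drought and 524 to 761 in well-watered *GC::AtTOR* leaves, 202 to 260.0 and 519 to 677 in *35S::AtTOR* leaves, and 103 to 139 and 422 to 571 in WT leaves. Gene by gene, 4 of the 4 lay lower without overlap in *GC::AtTOR*, 2 in *35S::AtTOR* and 4 in WT. Among the 5 green leaf markers the numbers under drought were 5, 2 and 5 (31.5%, 24% and 33.6% of all genes). The part of these markers in the drought differences was not tested. In bulk leaf RNA, fewer cells of a type and less RNA per cell cannot be told apart.

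Over the 27 samples, 5 of the 8 genes fell into a pair of opposite courses. GA2OX2 and GA2OX8 had a Pearson correlation of 0.905 on the log2 scale and each followed RGA (0.839 and 0.810). GA3OX1 ran with GA2OX1 (0.839) and against GA2OX2 (-0.876), GA2OX8 (-0.848) and RGA (-0.838). Under drought, however, GA2OX1 lay below the well-watered samples in every genotype. GA3OX1 lay above the well-watered samples in *GC::AtTOR* and overlapped with them in the other genotypes. GA20OX1 and GA2OX6 followed none of the others closely, with correlations between -0.563 and 0.492, and RGL3 ran against GA2OX2 (-0.726) but was less close to GA3OX1 (0.513) and GA2OX1 (0.257). These are descriptions without a test, and the points share their libraries and the contrast between re-watered and other leaves.

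Of all genes tested, those nearest in pattern over the 27 samples were AT1G67660 (r = 0.985) and TRANS11 (0.984) for GA2OX1, AT1G72920 (0.979) and TBL45 (0.970) for GA2OX2, VPS28-1 (0.927) and SRO5 (0.921) for GA2OX6, and AT5G12420 (0.950) and AT5G62890 (0.947) for GA2OX8. For GA3OX1 they were AT5G62210 (0.961) and AT4G13800 (0.956), for GA20OX1 NCRK (0.929) and AT2G26730 (0.917), for RGA MLO10 (0.954) and RPP13 (0.944), and for RGL3 OMT1 (0.922) and PTAC9 (0.908).

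The rest of the pathway was read from 7 lists of 41 genes, of which 27 were tested. The lists hold genes known for each step and were written with earlier results of these data known, so the tests below are not independent of them. The other oxidases were nearly silent: none of 6 further genes for active-form synthesis and none of 7 further inactivation genes reached a group mean of 10. GA3OX2 was the highest of the synthesis genes, at no more than 8.77 normalized counts in any sample, and the hydroxylase gene CYP714A1 the highest of the inactivation genes, at no more than 5.1.

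After re-watering, 3 genes that act around the DELLA proteins or early in synthesis differed between transgenic and WT leaves. SPY, an enzyme that attaches fucose to DELLA proteins, averaged 862 ± 80.4 normalized counts in *GC::AtTOR*, 703 ± 126 in *35S::AtTOR* and 2038 ± 237 in WT (SD, n = 3 each). It was lower in both than in re-watered WT leaves, with a log2 fold change of -1.24 ± 0.11 in *GC::AtTOR* (adjusted p = 2.75e-08) and -1.54 ± 0.11 in *35S::AtTOR* (adjusted p = 2.17e-09). All adjusted p-values are from limma with Benjamini-Hochberg adjustment over all genes tested. The receptor gene GID1B averaged 70.8 ± 8.81 in *GC::AtTOR*, 102 ± 14.0 in *35S::AtTOR* and 189 ± 24.1 in WT, and lay 1.40 ± 0.28 below WT in *GC::AtTOR* (adjusted p = 0.000345). GA3, the ent-kaurene oxidase of early synthesis, averaged 252 ± 32.7, 262 ± 4.32 and 521 ± 35.6 in the same order of genotypes. It lay 1.05 ± 0.12 below WT in *GC::AtTOR* (adjusted p = 7.41e-07), a DEG that went below the fold threshold without re-watered *GC::AtTOR* replicate 2.

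**Figure D4:**
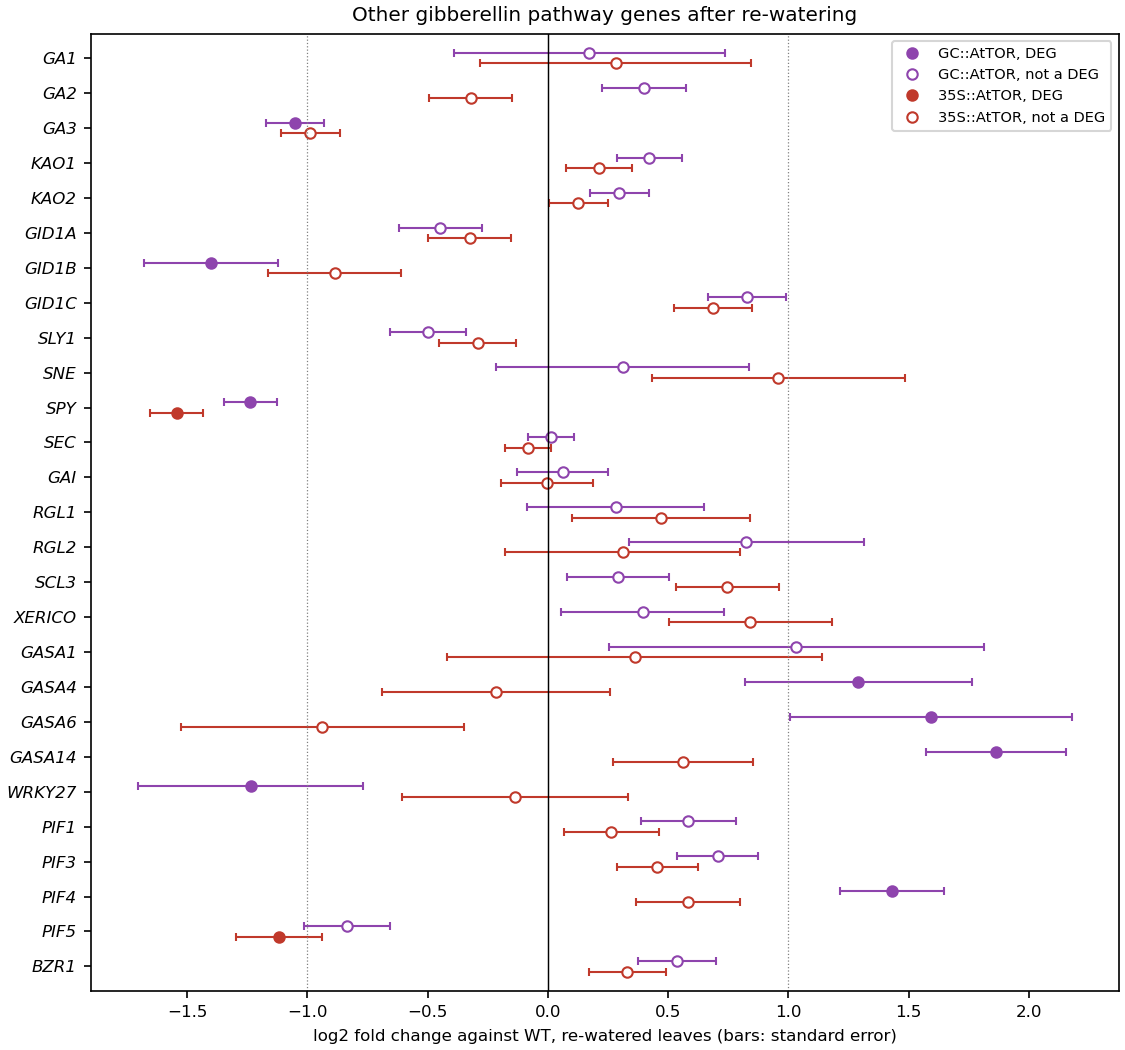
log2 fold change of *GC::AtTOR* and *35S::AtTOR* against WT in re-watered leaves for the 27 other pathway genes tested; bars are standard errors, filled points are DEGs and dotted lines mark the fold threshold. SPY lies at -1.24 and -1.54, and GASA14 at 1.86 in *GC::AtTOR*.

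Other genes separated *GC::AtTOR* from WT after re-watering. GASA14, a gibberellin-regulated peptide gene, averaged 1397 ± 64.6 in *GC::AtTOR* and 384 ± 33.2 in WT, 1.86 ± 0.29 above WT (adjusted p = 2.73e-05). PIF4, a DELLA-bound growth factor of the bHLH family, averaged 472 ± 21.9 and 187 ± 76.1, 1.43 ± 0.22 above WT (adjusted p = 1.98e-05). GASA6 lay 1.59 ± 0.59 (adjusted p = 0.0326) and GASA4 1.29 ± 0.47 (adjusted p = 0.0316) above WT, while WRKY27 lay 1.24 ± 0.47 below it (adjusted p = 0.0372). Those 3 calls were lost on leaving out single re-watered samples: GASA4 without WT replicate 1 or 3 or *GC::AtTOR* replicate 1, GASA6 without any WT replicate or *GC::AtTOR* replicate 1 or 3, and WRKY27 without replicate 2 or 3 of either genotype. The WRKY27 call was also lost with 5 added before the logarithm and with no minimum mean. In re-watered *35S::AtTOR* leaves PIF5 lay 1.12 ± 0.18 below WT (adjusted p = 5.29e-05), a DEG lost without *35S::AtTOR* replicate 2. In total 4 of 27 were higher and 4 lower than WT in *GC::AtTOR* (8.3% and 6.35% of all genes), 5 in total without WT replicate 3. In *35S::AtTOR* 2 were lower than WT (4.85% of all genes), 1 without *35S::AtTOR* replicate 2.

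In well-watered leaves and under drought no other pathway gene was a DEG between a transgenic genotype and WT by limma. When well-watered, 3 of 27 had an unadjusted p under 0.05 for *GC::AtTOR* and 6 for *35S::AtTOR*. By edgeR and by DESeq2 the count was 0 for *GC::AtTOR* and 2 for *35S::AtTOR*. Without well-watered *35S::AtTOR* replicate 1 the limma count in *35S::AtTOR* was 1. Under drought 0 of 27 had an unadjusted p under 0.05 for *GC::AtTOR* and 7 for *35S::AtTOR*. By edgeR and by DESeq2 the count was 0 for both.

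Between drought and well-watered leaves 3 of the gibberellin-response genes tested were DEGs in all 3 genotypes. They were XERICO, GASA1 and WRKY27. XERICO, a DELLA target that promotes abscisic acid accumulation, rose by 2.69 ± 0.34 in *GC::AtTOR* (adjusted p = 1.09e-06), 1.72 ± 0.34 in *35S::AtTOR* (adjusted p = 0.00107) and 1.80 ± 0.34 in WT (adjusted p = 0.000153). GASA1, a peptide gene induced by gibberellin, fell in all of them, with log2 fold changes of -5.05 ± 0.78 in *GC::AtTOR* (adjusted p = 1.31e-05), -2.85 ± 0.78 in *35S::AtTOR* (adjusted p = 0.0105) and -4.37 ± 0.78 in WT (adjusted p = 8.84e-05). WRKY27, a transcription factor gene, fell in *GC::AtTOR* (-2.19 ± 0.47, adjusted p = 0.000452), *35S::AtTOR* (-1.72 ± 0.47, adjusted p = 0.0101) and WT (-1.32 ± 0.47, adjusted p = 0.0227). Its call was lost in *35S::AtTOR* without drought replicate 3, and in WT with equal sample totals or without well-watered replicate 1 or 3 or drought replicate 2 or 3. GASA4 fell in *GC::AtTOR* (-3.97 ± 0.47, adjusted p = 5.13e-07) and WT (-3.32 ± 0.47, adjusted p = 6.99e-06), as did GASA6 in *GC::AtTOR* (-2.57 ± 0.59, adjusted p = 0.000807) and WT (-2.71 ± 0.59, adjusted p = 0.00063). In all, 2 of 7 response genes rose and 5 fell in *GC::AtTOR* (8.02% and 17% of all genes), 1 rose and 2 fell in *35S::AtTOR* (2.32% and 5.44%), and 1 rose and 4 fell in WT (7.61% and 12.8%), with median log2 fold changes of -2.19, -1.15 and -1.32, against -0.03, -0.0096 and -0.03 over all genes. Among those counted in *GC::AtTOR*, the call of GASA14 was lost with equal sample totals and without drought replicate 3.

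The light-signalling factor PIF3 rose under drought by 1.82 ± 0.17 in *GC::AtTOR* (adjusted p = 2.03e-08) and 2.00 ± 0.17 in WT (adjusted p = 9.17e-09), and GID1B rose by 1.51 ± 0.28 in WT (adjusted p = 0.000119). Among the other DELLA genes RGL1 fell by 1.97 ± 0.37 in *GC::AtTOR* (adjusted p = 0.000118). Its calls in *35S::AtTOR* (adjusted p = 0.0286) and WT (adjusted p = 0.0205) were each lost on leaving out single samples: well-watered replicate 1 or 2 or drought replicate 1 or 3 in *35S::AtTOR*, and well-watered replicate 2 or 3 or drought replicate 3 in WT. Both were also lost by edgeR and by DESeq2. The WT call was lost too with 5 added before the logarithm, with the compared groups alone and with equal sample totals. GAI, the closest relative of RGA, fell by 1.08 ± 0.19 in WT (adjusted p = 7.68e-05), a call lost without drought replicate 1, with equal sample totals and by edgeR. Over the 27 genes 3 rose and 6 fell in *GC::AtTOR* (8.02% and 17% of all genes), 1 rose and 3 fell in *35S::AtTOR* (2.32% and 5.44%), and 3 rose and 6 fell in WT (7.61% and 12.8%), and the *35S::AtTOR* total of 4 was 2 without drought replicate 3.

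Between re-watered and well-watered leaves, GA2, the ent-kaurene synthase, fell in all 3 genotypes, with log2 fold changes of -2.11 ± 0.17 in *GC::AtTOR* (adjusted p = 3.55e-09), -3.23 ± 0.17 in *35S::AtTOR* (adjusted p = 2.76e-12) and -2.86 ± 0.17 in WT (adjusted p = 8.04e-12). The fold changes of PIF4 were -2.60 ± 0.22 in *GC::AtTOR*, -3.38 ± 0.22 in *35S::AtTOR* and -4.05 ± 0.22 in WT, and those of PIF5 were -2.71 ± 0.18, -3.19 ± 0.18 and -1.70 ± 0.18 in the same order, with the largest adjusted p of these 6 at 4.18e-08 (PIF5 in WT). The DELLA gene RGL1 rose by 1.22 ± 0.37 in *GC::AtTOR* (adjusted p = 0.0107), 1.50 ± 0.37 in *35S::AtTOR* (adjusted p = 0.0018) and 1.48 ± 0.37 in WT (adjusted p = 0.00149), with the *GC::AtTOR* call lost without well-watered replicate 3. GASA6 rose in all 3, by 3.46 ± 0.59, 2.21 ± 0.59 and 1.98 ± 0.59 (adjusted p = 6.13e-05, 0.0034 and 0.00589). XERICO was a lower DEG in all 3. It averaged 127 in re-watered and 418 in well-watered *GC::AtTOR* leaves, 174 and 373 in *35S::AtTOR*, and 96.8 and 587 in WT. Its *35S::AtTOR* call was lost with equal sample totals and without replicate 2 or 3 of either group. Over the 27 genes 3 rose and 5 fell in *GC::AtTOR* (6.68% and 7.95% of all genes). In *35S::AtTOR* 5 rose and 6 fell (9.72% and 9.92%), as in WT (14.4% and 15.8%).

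In WT leaves alone of the 3 genotypes SPY, GID1B and GA3 passed both thresholds after re-watering, rising by 1.81 ± 0.11 (adjusted p = 8.4e-12), 2.00 ± 0.28 (adjusted p = 2.06e-06) and 1.51 ± 0.12 (adjusted p = 7.1e-10) against well-watered leaves. The difference of this response from that of WT was itself tested, and passed for all 3 genes in both transgenic genotypes. In *GC::AtTOR* it was -1.20 ± 0.16 for SPY (adjusted p = 8.93e-06), -2.21 ± 0.39 for GID1B (adjusted p = 0.000202) and -1.33 ± 0.17 for GA3 (adjusted p = 8.49e-06). In *35S::AtTOR* it was -1.67 ± 0.16 for SPY (adjusted p = 2.67e-07), -1.63 ± 0.39 for GID1B (adjusted p = 0.00273) and -1.14 ± 0.17 for GA3 (adjusted p = 4.45e-05). Over the 27 genes the re-watering response differed from that of WT upwards for 2 and downwards for 4 in *GC::AtTOR* (8.8% and 7.87% of all genes), and upwards for 1 and downwards for 4 in *35S::AtTOR* (7.82% and 7.63%).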

How the data were processed

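Leaf RNA of 27 samples was sequenced as paired ends. Per the labels and the study's methods, the authors used Trimmomatic for trimming, STAR for alignment (TAIR10) and Salmon with tximport for gene-level quantification (CASAVA is also named; versions are not given in the sources used here). Each deposited signal value equals the count of a gene over its sample's DESeq2 size factor, not scaled for gene length. In 26 samples the values were whole multiples of 1 read (tolerance 0.1 reads, 100% of values). In *35S::AtTOR* well-watered replicate 1 a read is worth nearly 1, so reads could not be told from rounding, and edgeR and DESeq2 ran without it.

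The members and all gene lists were chosen with earlier results of these data known. The values were fitted with limma 3.58.1 (R 4.3.3; lmFit, eBayes with trend) on log2(value + 1), as 1 model of 9 groups with 18 residual degrees of freedom and 16 comparisons. Genes needed a group mean of at least 10 (18785 of 34218 tested; 8784 were 0 throughout). The DEG thresholds followed the study. In simulated counts for well-watered *GC::AtTOR* against WT (17848 genes), 22, 45, 50 and 50 of 50 genes changed 2, 3, 4 and 8-fold were called, with 4 others. The changed genes were drawn from those with a well-watered WT mean of at least 50, and all groups were simulated from the well-watered WT means. Among the members fitted, GA2OX6 (12.8), GA2OX2 (33.8), GA2OX8 (10.7) and RGL3 (42.7) lay below that mean, so the simulation does not give the recovery for them. Named genes were the 9 members, TOR, all listed genes (1 of the entries was dropped because its symbol and locus are not paired in RefSeq) and the 2 tested genes closest in Pearson correlation to each member. Motifs and their capitals were chosen with the values known. The table holds no coordinates, so gene positions and sequences come from the TAIR10.1 assembly by locus. All 27 columns were mapped to samples. The alternatives tried were a pseudocount of 0.5 or 5, no minimum or a group mean of 50, the compared groups alone, a replicate block, equal totals, edgeR 4.0.16, DESeq2 1.42.0 and each replicate left out; counting *GC::AtTOR* well-watered replicates 1 and 2 as 1 sample was added after seeing the data. Reads without molecular identifiers are not independent molecules, so counting intervals cover counting error only.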

Additional observations from a re-analysis of the deposited data

Results flagged for a closer look

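Several genes responded differently to re-watering in the transgenic genotypes than in WT, by limma's test of the difference between the responses. In *GC::AtTOR* against WT the difference in log2 fold change was -1.33 for GA3 (adjusted p = 8.49e-06), -2.21 for GID1B (adjusted p = 0.000202), -1.20 for SPY (adjusted p = 8.93e-06), -1.004 for PIF5 (adjusted p = 0.00414), 1.43 for GASA14 (adjusted p = 0.0101) and 1.45 for PIF4 (adjusted p = 0.00104). The value for PIF5 lies at the fold threshold and passed it in 14 of 22 alternatives. In *35S::AtTOR* against WT it was -1.14 for GA3 (adjusted p = 4.45e-05), -1.63 for GID1B (adjusted p = 0.00273), -1.67 for SPY (adjusted p = 2.67e-07), -1.49 for PIF5 (adjusted p = 0.00014) and 1.50 for XERICO (adjusted p = 0.0182), the last lost without well-watered WT replicate 1 or *35S::AtTOR* replicate 1 and by edgeR.

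For drought, PIF3 rose less in *35S::AtTOR* than in WT, by -1.17 on the log2 scale (adjusted p = 0.00682). RGL3 in re-watered leaves moved in opposite directions relative to well-watered leaves: all *GC::AtTOR* samples lay lower and all WT samples higher, a difference of -1.78. It was past the DEG thresholds in the fit over all genes, but the gene was selected on results of these data, so the value is a description and the difference was not tested on independent samples.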

How the results depend on the processing

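No called difference changed direction. Of the 2230 log2 fold changes of members under the alternatives, 2169 stayed within the spread between replicates and 61 did not, and 56 had the opposite sign, for 25 fold changes that were at most 0.55 in size and of which 0 were DEGs. Of the calls of other pathway genes 1163 held and 82 lost a threshold. Scaling to equal sample totals moved the median of all genes by more than 0.1 in 8 comparisons and by at most 0.32 on the log2 scale (re-watered against well-watered WT, 0.35 against 0.02). Counts of members called changed as follows. For well-watered *GC::AtTOR* against WT (1) there were 2 with 5 added or by DESeq2, 0 with the compared groups alone or with *GC::AtTOR* replicates 1 and 2 counted as 1, and 0 to 2 on leaving out a replicate. For well-watered *35S::AtTOR* (1) there were 2 with the compared groups alone, 0 by edgeR and 0 to 1 on leaving out a replicate. For re-watered *35S::AtTOR* (1) there were 2 with 5 added, with the compared groups alone, by edgeR and by DESeq2. For the difference in drought response, *GC::AtTOR* (0) had 1 by DESeq2 and 0 to 2 without a replicate, and *35S::AtTOR* (1) had 0 with the compared groups alone or by edgeR and 0 to 2 without a replicate. For the difference in re-watering response *35S::AtTOR* (1) had 2 with the compared groups alone.

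Counts of other pathway genes changed for well-watered *35S::AtTOR* (0), with 2 when 5 was added, 3 with the compared groups alone, 2 by edgeR, 2 by DESeq2 and 0 to 1 without a replicate. Without a replicate they were 5 to 7 for re-watered *GC::AtTOR* (8), 1 to 3 for re-watered *35S::AtTOR* (2), 2 to 4 for drought in *35S::AtTOR* (4) and 0 to 1 for the drought response of *GC::AtTOR* (0). The drought response of *35S::AtTOR* (1) had 2 with 5 added, 3 with the compared groups alone, 3 by edgeR, 3 by DESeq2 and 1 to 2 without a replicate. The replicate numbers do not pair samples: 17 of 108 same-numbered pairs had deviations correlated above 0.1 (-0.28 to 0.50, median 0.0058), and 7 of 27 samples correlated best with their own number. With a replicate block the counts of members were unchanged (1 in well-watered *GC::AtTOR*), and the other pathway count for re-watered *GC::AtTOR* against well-watered leaves was 9, against 8 without it.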
